A study of Mus musculus with 6 samples.

Results

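The genes of cholesterol and fatty acid synthesis were followed on arrays of mouse iNKT cells, the invariant natural killer T lymphocytes. The set is 34 genes listed by role: the enzymes that make cholesterol and fatty acids, the sterol sensors that control them, and the proteins that move or export cholesterol. A gene was represented by an array row whose only gene symbol is that gene's, and where a gene had several, by the one brightest on average over the 6 arrays. In all, 29 of the 34 genes had such a row, out of 22180 genes and 23521 rows tested. Idi1 and Scd2 had only rows shared with other symbols, and these together with Acat2, Nr1h2 and Soat1 were not analysed here. Scap alone had several rows. The 6 arrays fell into 2 groups of 3: iNKT cells of PLZF_ON mice, whose PLZF transcription factor is expressed in a constitutively acetylated form, and iNKT cells of wild-type (WT) mice. The series names replicates 1 and 2 of each group as those it analysed, and replicate 3 of each was deposited beside them, so values are given over 4 arrays and over 6. The sources used here do not give age, sex, organ, the way the PLZF_ON allele is driven, how cells were isolated or whether animals were pooled, and the extraction protocol speaks of frozen tissue. No label ties replicates to different animals, and the p-values therefore cover the spread among these arrays alone, which could be technical.

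Cholesterol is built from acetyl-CoA through mevalonate and isoprenoid intermediates to squalene, which is closed into lanosterol and trimmed to cholesterol in the endoplasmic reticulum. When membrane sterol is low, the escort protein SCAP carries the SREBP transcription factors, encoded by Srebf1 and Srebf2, to the Golgi, where they are cut and released to induce the synthesis genes, and INSIG proteins hold that complex back when sterol is plentiful. Excess cholesterol is exported by ABCA1 and ABCG1, whose genes are induced by the oxysterol-sensing LXR receptors. T cells raise both sterol and fatty acid synthesis when they grow and divide, and iNKT cells recognise lipids presented by CD1d.

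None of the 29 lipid genes differed between PLZF_ON and WT by limma, a moderated test fitted across all rows, at a Benjamini-Hochberg adjusted p of 0.05. This held over 4 arrays, where 0.17% of all rows passed (0.102% higher, 0.068% lower), and over 6 arrays, where 0.0935% did (0.0255% higher, 0.068% lower). The smallest adjusted p of a lipid gene was 0.384 over 4 arrays and 0.82 over 6. An unadjusted p under 0.05 was reached over 4 arrays by Fdps and Cyp51, which were higher in PLZF_ON, and by Hmgcs1, which was lower. These 3 of 29 genes are 10.3%, against 9.41% of all rows (4.88% higher, 4.53% lower). Over 6 arrays Hmgcs1 and Insig1, both lower in PLZF_ON, had an unadjusted p under 0.05, which is 6.90% of the lipid genes against 5.77% of all rows (2.45% higher, 3.32% lower). Over 4 arrays 15 lipid genes had a difference above 0 (51.7%, against 49.3% of all rows), with a median of 0.00 on the log2 scale, as for all rows. Over 6 arrays 11 did (37.9%, against 54.9% of all rows), with a median of -0.10, against 0.03 for all rows. A difference of over 0.5 in either direction was found for 4 lipid genes over 4 arrays (13.8%, against 6.79% of all rows) and for 7 over 6 arrays (24.1%, against 8.21%). Of these 7, Fdps was higher in PLZF_ON, and Hmgcs1, Sc5d, Insig1, Srebf2, Abca1 and Acly were lower. The shares of differences over 0.5 were not taken among bright rows alone. Standard errors of the differences ran from 0.13 to 0.28 over 4 arrays and from 0.14 to 0.43 over 6. The measured level reflects the whole sample, so fewer expressing cells and less RNA per cell cannot be told apart.

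Median log2 values of the arrays ran between 4.88 and 5.01. PLZF_ON replicate 3 stood apart, with correlations of 0.895 to 0.898 with the other 5 arrays, against 0.957 to 0.973 among those 5, and a narrower spread over rows (SD 1.79, against 1.97 to 2.01). The T cell markers Cd3d, Cd3e, Cd3g, Cd2, Cd5 and Zap70 lay between 8.60 and 11.49 on all 6 arrays, and Zbtb16, which encodes PLZF, between 9.54 and 10.68. To judge dim genes, a limit of 5.21 was set at percentile 95 of the mean levels of 1394 olfactory or vomeronasal genes, sensory receptors with no known role in T cells. B cell markers were all under it (0 of 4 above), and macrophage and monocyte markers exceeded it in 2 of 7. The median of 6 double-positive thymocyte markers was 6.87 in PLZF_ON replicate 3 and 4.76 to 5.14 on the other arrays. Of these, Cd4 was higher in all PLZF_ON arrays, at 9.46, 8.90 and 8.91, against 8.01, 7.80 and 7.56 in WT. It differed by 1.28 over 4 arrays (limma adjusted p = 0.115) and 1.30 over 6 (limma adjusted p = 0.124). The median of 7 macrophage and monocyte markers was 5.24 in PLZF_ON replicate 3, against 4.45 to 4.71. There it was the value of Itgam, which was at 5.61 in PLZF_ON replicate 1. Lyz2 was at 6.58 in PLZF_ON replicate 3 and at 3.96 to 4.48 elsewhere, although Cd68 was lowest there (5.32, against 6.45 to 6.95). The 3 epithelial markers and the 3 hepatocyte markers were all highest in PLZF_ON replicate 3, as were 40.0% of all rows. Epithelial medians were 6.20 there and 4.51 to 5.22 elsewhere. Only 1 marker of each of these 2 groups exceeded the limit in its mean. Rows below the median WT level lay above WT by a median of 0.29 on that array. The 4 NK cell markers exceeded the limit in their means, and over 4 arrays 2 were higher and 2 lower in PLZF_ON. Klrb1c was 4.56-fold lower (limma adjusted p = 0.157), whereas Ncr1, Eomes and Fcer1g differed by -0.02, 0.32 and 0.20. Ncr1 varied within groups, at 7.65, 4.80 and 8.25 in PLZF_ON and at 5.80, 6.68 and 7.48 in WT. The median of 3 adipocyte markers, which is that of Adipoq, was 4.95 to 5.20 in PLZF_ON and 4.57 to 4.68 in WT, under the limit on every array. Plin1, the 1 adipocyte marker above the limit in its mean (5.36), differed by -0.06 over 4 arrays and -0.10 over 6. Lep, under the limit, differed by 0.16 and 0.24. The part of these markers in the results below was not tested. Of the lipid genes, 22 exceeded the limit in their mean over 6 arrays, and Sqle, Lss, Cyp51, Msmo1, Hsd17b7, Nr1h3 and Scd1 did not, so a mean level above background was not shown for these 7. Among the 22 brighter genes, 2 had an unadjusted p under 0.05 in each fit (9.09%), against 14.5% of such rows over 4 arrays and 9.35% over 6. Cyp51, which had an unadjusted p under 0.05 by limma over 4 arrays, is not among the 22.

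**Figure D1:**
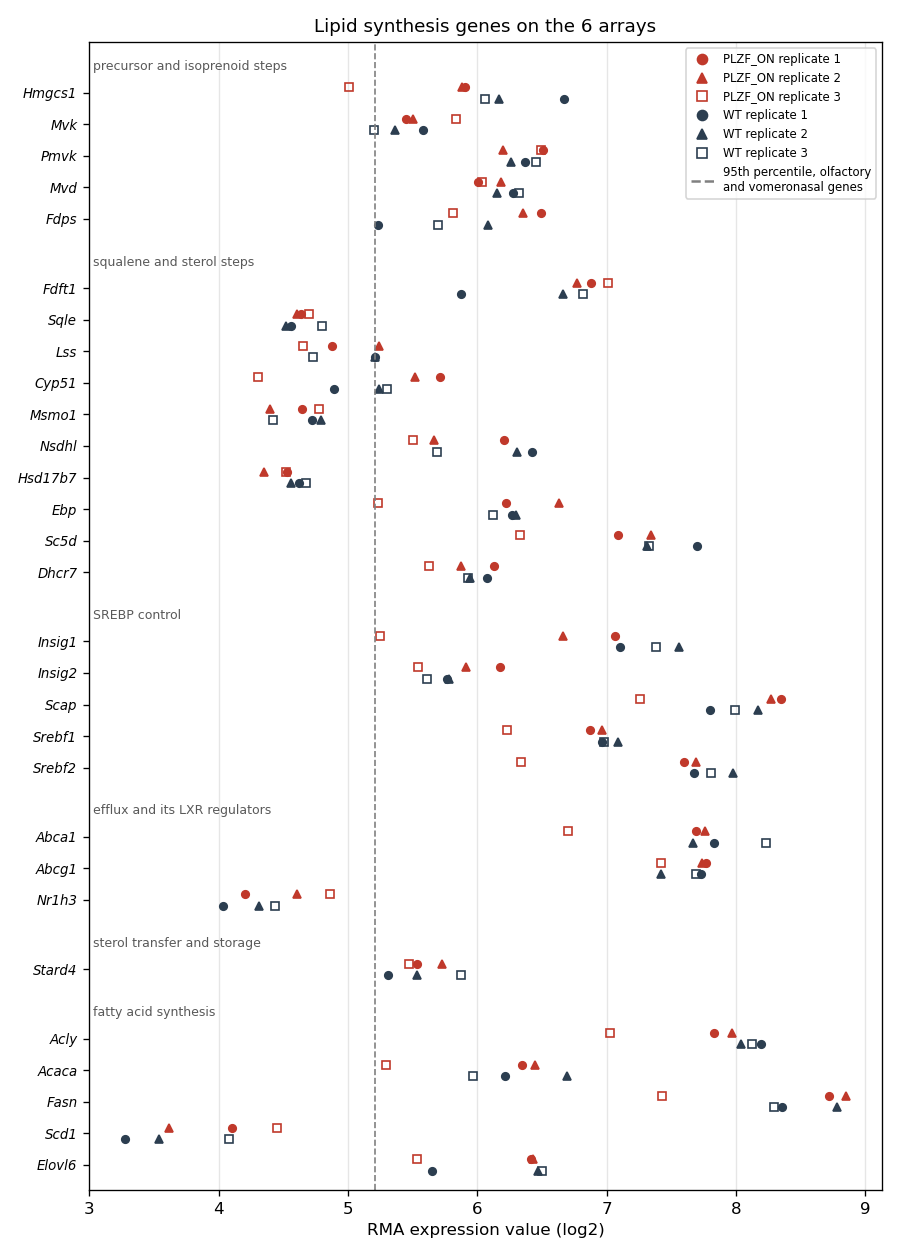
Levels of the 29 lipid genes on each array, as log2 values on the horizontal axis, with PLZF_ON arrays drawn above WT arrays for each gene and the marker shape giving the replicate. The dashed line is the limit of 5.21 from olfactory and vomeronasal genes; PLZF_ON replicate 3 (open red squares) is the lowest of the 6 arrays for 18 of the 29 genes.

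The first steps lead from acetyl-CoA to farnesyl diphosphate, and hold both ends of the range of the cholesterol synthesis genes over 4 arrays, Hmgcs1 at the low end and Fdps at the high end. Hmgcs1, which condenses acetyl units into HMG-CoA, had log2 values of 5.90, 5.88 and 5.01 in PLZF_ON replicates 1 to 3, against 6.67, 6.17 and 6.06 in WT replicates 1 to 3. Every PLZF_ON array lay below every WT array. The difference was -0.53 over 4 arrays (1.44-fold lower, SE 0.19, n = 2 per group, limma unadjusted p = 0.0326, adjusted p = 0.459) and -0.70 over 6 (SE 0.28, n = 3 per group, limma unadjusted p = 0.0394, adjusted p = 0.82). Without WT replicate 1 the difference over 4 arrays was -0.28.

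Fdps, the synthase that makes farnesyl diphosphate for sterols and for protein prenylation, was at 6.49, 6.35 and 5.81 in PLZF_ON, against 5.23, 6.08 and 5.69 in WT. WT replicate 1 was far below the rest, and over 6 arrays the groups overlapped because PLZF_ON replicate 3 lay under WT replicate 2. The difference was 0.76 over 4 arrays (1.70-fold higher, SE 0.28, limma unadjusted p = 0.0324, adjusted p = 0.459) and 0.55 over 6 (SE 0.27, limma adjusted p = 0.92). Without WT replicate 1 it was 0.34 over 4 arrays. Without WT replicate 2, which leaves the low WT replicate 1 alone in its group, it was 1.19. The steps between these enzymes differed little over 4 arrays. Pmvk, which phosphorylates phosphomevalonate, was at 6.51, 6.20 and 6.49 in PLZF_ON and at 6.37, 6.26 and 6.46 in WT, a difference of 0.04 in both fits. The mevalonate kinase Mvk and the decarboxylase Mvd differed by 0.00 and -0.12 over 4 arrays and by 0.21 and -0.18 over 6.

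The squalene and sterol steps were divided as well, with 4 genes higher and 6 lower over 4 arrays. Fdft1, squalene synthase, was at 6.88, 6.77 and 7.01 in PLZF_ON and at 5.88, 6.66 and 6.82 in WT. As with Fdps, WT replicate 1 was the low array, and the other 5 lay within 6.66 and 7.01. Its difference was 0.56 over 4 arrays (SE 0.26, limma unadjusted p = 0.0752, adjusted p = 0.604) and 0.43 over 6 (limma adjusted p = 0.941). Cyp51, the lanosterol demethylase, had values of 5.71, 5.52 and 4.31 in PLZF_ON, against 4.90, 5.24 and 5.30 in WT. The mean of 5.16 over 6 arrays was under the limit of 5.21, so no fold is given. That mean includes PLZF_ON replicate 3, and over 4 arrays the group means were 5.62 in PLZF_ON and 5.07 in WT. PLZF_ON replicates 1 and 2 were the highest of the 6 arrays and replicate 3 the lowest. The difference of 0.55 over 4 arrays (SE 0.17, limma unadjusted p = 0.0181, adjusted p = 0.384) was thus 0.03 over 6 (SE 0.36, limma adjusted p = 0.992), and without WT replicate 1 it was 0.37 over 4 arrays.

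Lower values in PLZF_ON were found for Nsdhl, which removes the oxidised methyl carbons of the sterol ring and is X-linked. It was at 6.20, 5.66 and 5.50 in PLZF_ON, against 6.42, 6.31 and 5.69 in WT, lower within each replicate number although the groups overlapped over 6 arrays. Its difference was -0.43 over 4 arrays (SE 0.20, limma unadjusted p = 0.0768, adjusted p = 0.61) and -0.35 over 6 (limma adjusted p = 0.941). Sc5d, a sterol desaturase of the last steps, was at 7.09, 7.34 and 6.33 in PLZF_ON and at 7.70, 7.31 and 7.33 in WT. The difference was -0.29 over 4 arrays and -0.52 over 6 (limma adjusted p = 0.738 and 0.941), and PLZF_ON replicate 2 lay among the WT arrays. Dhcr7, which completes cholesterol, differed by 0.00 over 4 arrays and -0.10 over 6. The isomerase Ebp differed by 0.14 over 4 arrays and by -0.20 over 6, where PLZF_ON replicate 3 was the lowest array. The dim genes Sqle, Lss, Msmo1 and Hsd17b7 differed by between -0.24 and 0.08 over 4 arrays and between -0.15 and 0.02 over 6.

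The SREBP control genes held the largest difference over 6 arrays. Insig1, the brake on SREBP that is itself a SREBP target, was at 7.06, 6.66 and 5.24 in PLZF_ON replicates 1 to 3, against 7.10, 7.56 and 7.38 in WT. Every PLZF_ON array was below every WT array, with differences of -0.04, -0.90 and -2.14 within replicates 1, 2 and 3. The difference was -0.47 over 4 arrays (1.38-fold lower, SE 0.22, limma unadjusted p = 0.0714, adjusted p = 0.596) and -1.02 over 6 (SE 0.43, limma unadjusted p = 0.0445, adjusted p = 0.848). Without PLZF_ON replicate 3 it was -0.49. Insig2, the related brake, was at 6.17, 5.92 and 5.54 in PLZF_ON, against 5.77, 5.78 and 5.61 in WT, with a difference of 0.27 over 4 arrays (SE 0.15, limma adjusted p = 0.68) and 0.16 over 6 (limma adjusted p = 0.941). The 2 INSIG genes thus differed in sign over 4 arrays, with neither passing the test.

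Scap, the escort of SREBP, was at 8.35, 8.27 and 7.26 in PLZF_ON and at 7.80, 8.17 and 7.99 in WT. The groups did not overlap over 4 arrays (difference 0.32, SE 0.17, limma adjusted p = 0.657). Over 6 arrays the difference was -0.03 (limma adjusted p = 0.992), and the second row of Scap differed by -0.06 over 4 arrays and -0.12 over 6. Srebf2, which mainly drives sterol genes, was at 7.60, 7.69 and 6.34 in PLZF_ON, against 7.67, 7.98 and 7.81 in WT, a difference of -0.18 over 4 arrays and -0.61 over 6 (limma adjusted p = 0.832 and 0.941). Srebf1, whose liver isoform drives fatty acid genes, was at 6.87, 6.96 and 6.23 in PLZF_ON and at 6.97, 7.09 and 6.98 in WT. Its groups did not overlap, although PLZF_ON replicate 2 and WT replicate 1 were nearly equal, and the difference was -0.11 over 4 arrays (SE 0.13, limma adjusted p = 0.9) and -0.32 over 6 (limma adjusted p = 0.941).

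**Figure D2:**
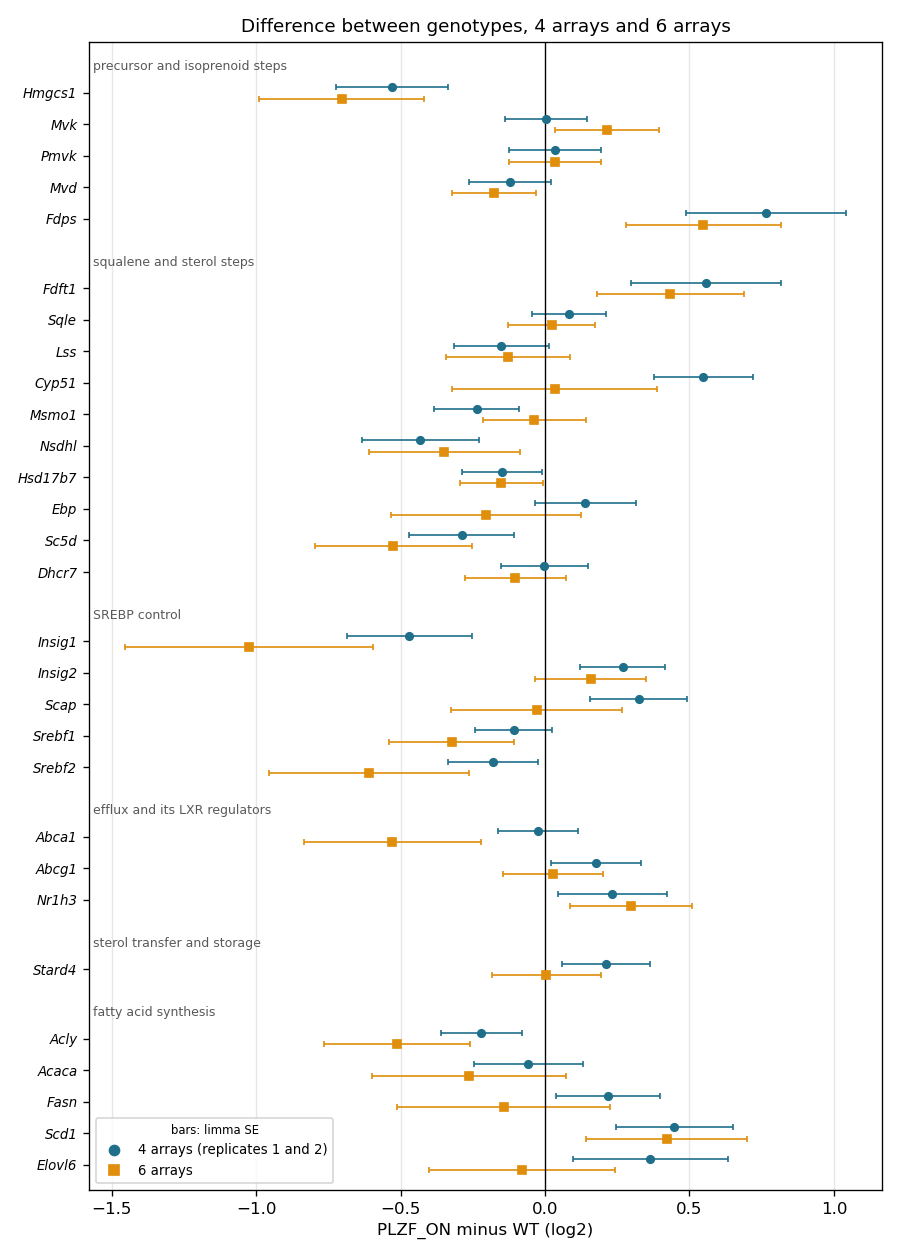
Differences of PLZF_ON minus WT on the log2 scale for the 29 lipid genes, over 4 arrays (circles) and 6 arrays (squares), with bars of 1 limma standard error. Fdps reaches 0.76 and Hmgcs1 -0.53 over 4 arrays, and Insig1 lies at -0.47 over 4 arrays and -1.02 over 6.

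Promoters are shown for Hmgcs1, Insig1 and Cyp51, known SREBP-responsive genes of the precursor, control and sterol steps that had an unadjusted p under 0.05 over 4 or 6 arrays. RefSeq promoter windows (build GRCm38.p6, 300 bases, most of them before the gene's start) were given for 23 of the 29 genes, and several windows for some. They were searched on both strands for the sterol regulatory element TCACNCCAC and the NF-Y box CCAAT, and capitals mark the matches, which appear as ATTGG where the box lies on the other strand. The windows run 5′ to 3′ along the gene, at chr13:119690101-119690400 (plus strand) for Hmgcs1, chr5:28071162-28071461 (plus strand) for Insig1 and chr5:4104648-4104947 (minus strand) for Cyp51.
Hmgcs1: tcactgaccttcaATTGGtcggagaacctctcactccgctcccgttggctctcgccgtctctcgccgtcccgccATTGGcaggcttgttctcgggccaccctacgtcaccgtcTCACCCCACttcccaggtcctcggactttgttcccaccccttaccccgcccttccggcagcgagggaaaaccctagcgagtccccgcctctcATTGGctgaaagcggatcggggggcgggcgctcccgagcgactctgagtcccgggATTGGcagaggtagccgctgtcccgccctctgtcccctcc
Insig1: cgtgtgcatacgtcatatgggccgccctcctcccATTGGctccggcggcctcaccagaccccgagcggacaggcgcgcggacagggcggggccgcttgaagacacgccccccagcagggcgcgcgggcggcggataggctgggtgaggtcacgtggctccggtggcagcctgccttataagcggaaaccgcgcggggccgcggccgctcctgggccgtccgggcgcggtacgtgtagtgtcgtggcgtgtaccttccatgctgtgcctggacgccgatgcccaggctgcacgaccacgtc
Cyp51: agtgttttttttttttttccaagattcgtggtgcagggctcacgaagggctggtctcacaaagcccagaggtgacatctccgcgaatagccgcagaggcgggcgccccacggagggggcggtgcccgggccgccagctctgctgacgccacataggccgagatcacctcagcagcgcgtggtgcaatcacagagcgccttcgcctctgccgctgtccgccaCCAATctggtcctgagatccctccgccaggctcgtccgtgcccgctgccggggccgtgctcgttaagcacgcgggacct

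Hmgcs1 held 1 sterol regulatory element, starting at -137 from the gene's start, and 4 CCAAT boxes, while Insig1 and Cyp51 held 1 CCAAT box each. Among the 23 lipid genes with a window, Hmgcs1 was the only one with the element as spelled (4.35%), against 1.43% of 16990 genes on the array with a window. The CCAAT box was found for 18 of 23 lipid genes (78.3%), against 41.6% of those 16990 genes. A gene counts here if any of its windows matches, and by window the shares were 59.4% of 32 and 37.4% of all 32851. The boxes stood in promoters of genes that were higher and of genes that were lower. The LXR direct repeat motif was found for 0 of 23 and for 0 of the 16990. A match is only a string of letters in this window, and its absence says nothing of whether a factor binds.

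Synthesis of fatty acids was described by 5 genes, 3 higher and 2 lower over 4 arrays, with a median difference of 0.22. Without WT replicate 1 that median was -0.04 over 4 arrays, and it was -0.14 over 6 arrays and 0.22 without PLZF_ON replicate 3. Fasn, the fatty acid synthase, was at 8.72, 8.85 and 7.43 in PLZF_ON and at 8.36, 8.78 and 8.30 in WT. PLZF_ON replicate 3 was the lowest array, and the difference was 0.22 over 4 arrays and -0.14 over 6 (limma adjusted p = 0.819 and 0.965). Acly, which makes cytosolic acetyl-CoA from citrate, was at 7.83, 7.97 and 7.03 in PLZF_ON, against 8.19, 8.04 and 8.12 in WT. Its groups did not overlap over 4 or 6 arrays, and it differed by -0.22 over 4 arrays (SE 0.14, limma adjusted p = 0.739) and by -0.51 over 6 (SE 0.25, limma adjusted p = 0.92). The carboxylase Acaca, the committed step, differed by -0.06 over 4 arrays and -0.26 over 6.

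Elovl6, the elongase of saturated fatty acids, was at 6.42, 6.43 and 5.54 in PLZF_ON and at 5.65, 6.47 and 6.50 in WT. Here again WT replicate 1 was low among the WT arrays and PLZF_ON replicate 3 low among the PLZF_ON arrays, with a difference of 0.36 over 4 arrays (SE 0.27, limma adjusted p = 0.786) and -0.08 over 6. Scd1, the stearoyl-CoA desaturase, was at 4.10, 3.61 and 4.45 in PLZF_ON and at 3.28, 3.54 and 4.08 in WT, all under the limit of 5.21. It differed by 0.45 over 4 arrays (SE 0.20, limma unadjusted p = 0.0694, adjusted p = 0.593) and by 0.42 over 6.

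No gene of export or sterol transfer had an unadjusted p under 0.05. Abca1, which loads cholesterol onto lipid-poor apolipoprotein, was at 7.69, 7.76 and 6.70 in PLZF_ON, against 7.83, 7.67 and 8.23 in WT. PLZF_ON replicate 3 was lowest and WT replicate 3 highest, so that a difference of -0.02 over 4 arrays (limma adjusted p = 0.98) became -0.53 over 6 (SE 0.31, limma adjusted p = 0.941). Abcg1, which exports cholesterol to high-density lipoprotein, was at 7.77, 7.74 and 7.42 in PLZF_ON and at 7.73, 7.42 and 7.69 in WT, a difference of 0.18 over 4 arrays and 0.03 over 6. Nr1h3, the LXR alpha receptor, was at 4.21, 4.61 and 4.86 in PLZF_ON and at 4.03, 4.31 and 4.43 in WT. It was under the limit on all arrays with overlapping groups, and differed by 0.23 over 4 arrays (SE 0.19, limma adjusted p = 0.813) and 0.30 over 6 (limma adjusted p = 0.941). Stard4, a sterol transfer protein, was at 5.54, 5.73 and 5.47 in PLZF_ON and at 5.31, 5.53 and 5.88 in WT (difference 0.21 over 4 arrays and 0.0047 over 6, limma adjusted p = 0.783 and 0.999).

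Synthesis was then set against efflux and uptake within each array, as the median of the 15 cholesterol synthesis genes minus that of the other group. Only differences of this value between arrays can be read, since rows of different genes differ in brightness. Against the efflux transporters Abca1 and Abcg1 it was -1.73, -1.87 and -1.56 in PLZF_ON, against -1.91, -1.46 and -2.27 in WT. The PLZF_ON arrays lay within the range of the WT arrays. The means were -1.80 ± 0.10 in PLZF_ON and -1.68 ± 0.31 in WT over 4 arrays (SD, n = 2 each), a difference of -0.11, and over 6 arrays the difference was 0.16. Without WT replicate 2 it was 0.11 over 4 arrays, and without WT replicate 1 it was -0.34, so its direction rested on single WT arrays. No test was made of a value over chosen genes.

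Against 5 uptake receptors, which bring lipoprotein lipid into cells, synthesis was at 1.18, 1.05 and 0.25 in PLZF_ON and at 1.07, 1.43 and 1.02 in WT, a difference of -0.14 over 4 arrays and -0.35 over 6. The uptake median was the value of Lrp1 on every array, a row with a mean of 4.84 under the limit, so the contrast is with 1 gene not shown above background. Without WT replicate 2 it was 0.047 over 4 arrays, and without PLZF_ON replicate 3 it was -0.059 over 6, so its direction and size rested on single arrays. Vldlr, Lrp1, Lrp8, Scarb1 and Cd36 differed by between 0.02 and 0.20 over 4 arrays, with limma adjusted p-values from 0.799 to 0.984, and by between -0.22 and 0.40 over 6, and Lrp8 and Scarb1 alone exceeded the limit of 5.21 in their mean. Lrp1 was at 4.82, 4.83 and 5.25 in PLZF_ON, against 4.81, 4.65 and 4.67 in WT, without overlap over 6 arrays (difference 0.10 over 4 arrays and 0.26 over 6, limma adjusted p = 0.914 and 0.941). PLZF_ON replicate 3, where dim rows lay above WT by a median of 0.29, was the highest array.

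**Figure D3:**
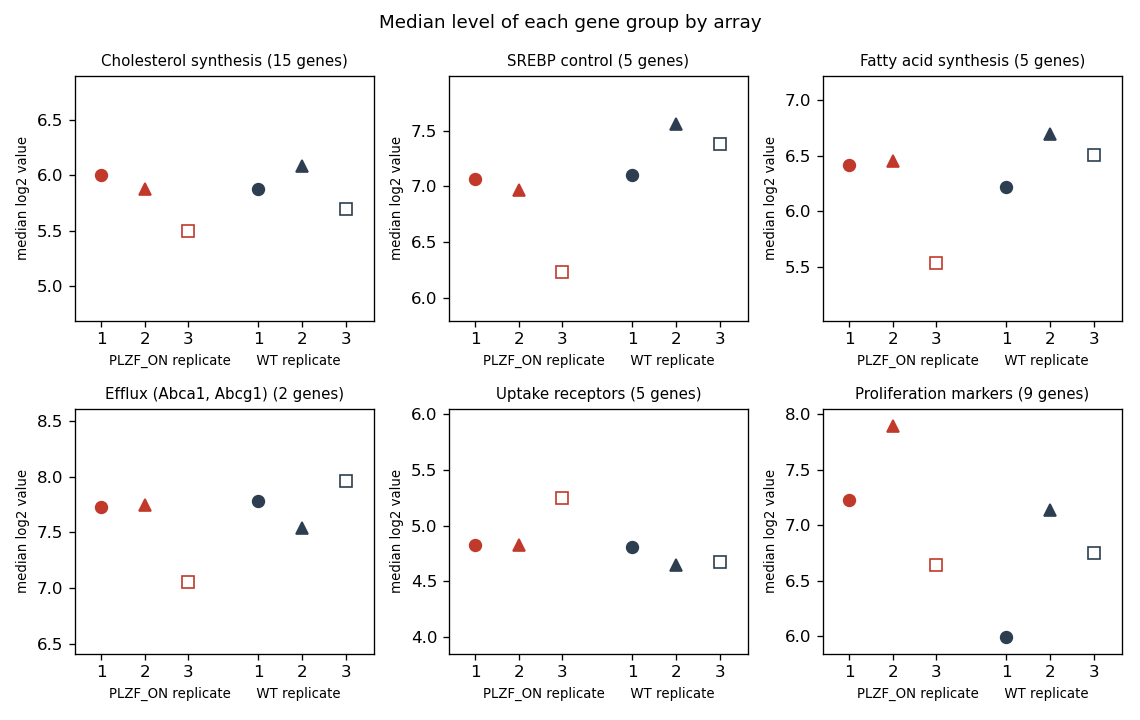
Median log2 level of 6 gene groups on each array, PLZF_ON arrays on the left and WT arrays on the right of each panel; all panels span the same range of log2 units. PLZF_ON replicate 3 is lowest for cholesterol synthesis, SREBP control, fatty acid synthesis and efflux. WT replicate 1 is lowest for the proliferation markers, with a median of 5.99.

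WT replicate 1 was the lowest of the 4 arrays for Fdps, Fdft1, Cyp51 and Elovl6, and for 11 of the 29 lipid genes (37.9%), against 25.2% of all rows. It was the highest of the 4 for 8 of the 29, against 6479 of 23521 rows. Among the 15 cholesterol synthesis genes it was the lowest for 3 (20%) and the highest for 6. For the 5 fatty acid synthesis genes these counts were 4 and 1. WT replicate 1 was also the lowest of the 4 for 9 of 9 proliferation markers, whose median was 7.22, 7.89 and 6.64 in PLZF_ON replicates 1 to 3, against 5.99, 7.14 and 6.75 in WT. Mki67 was at 8.61, 9.72 and 8.16 in PLZF_ON and at 7.58, 9.18 and 8.11 in WT. The part of proliferation in the lipid gene values was not tested. Without WT replicate 1 the differences over the 3 remaining arrays were 0.34 for Fdps, 0.37 for Cyp51, -0.28 for Hmgcs1 and -0.70 for Insig1. Without WT replicate 2 they were 1.19, 0.72, -0.78 and -0.24. Each of these differences rests on a lone WT array.

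PLZF_ON replicate 3 was the lowest of the 6 arrays for 18 of the 29 lipid genes and the highest for 4, against 27.1% and 40.0% of all rows. Its distance from WT followed the level of a row. Among rows above the upper quartile of the WT mean (6.61), 84.5% lay lower in PLZF_ON replicate 3 than in the WT mean, with a median of -0.53, and so did all 9 lipid genes of that range, with a median of -1.09. Between the median (5.03) and the upper quartile 49.0% of rows and 11 of 15 lipid genes were lower, with medians of 0.01 and -0.36. Below the median 17.7% of rows and 1 of 5 lipid genes were lower. These values describe 1 array and carry no test.

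**Figure D4:**
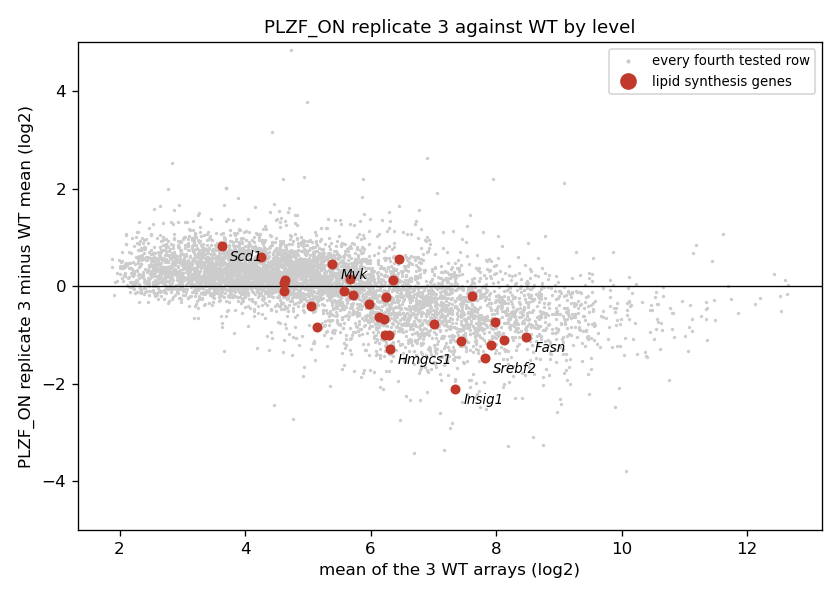
Difference of PLZF_ON replicate 3 from the mean of the 3 WT arrays (vertical, log2) against that WT mean (horizontal, log2), for the 29 lipid genes in red and a regular sample of the tested rows in grey. Bright rows lie mostly below 0, and the 9 lipid genes above a WT mean of 6.61 are all among them, with Insig1 the lowest lipid gene.

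Over 4 arrays the groups did not overlap for 16 of 29 lipid genes (55.2%), 9 higher and 7 lower, against 38.2% of all rows (18.9% higher, 19.3% lower). Among genes above the limit of 5.21 this was 11 of 22 (6 higher, 5 lower), against 43.3% of such rows (21.6% higher, 21.8% lower). Over 6 arrays 5 of 29 did not overlap (17.2%, against 11.8% of all rows). These were Hmgcs1, Hsd17b7, Insig1, Srebf1 and Acly, all lower in PLZF_ON, where 6.22% of all rows were lower and 5.55% higher without overlap. Above the limit it was 4 of 22 (18.2%), all lower, against 15.5% of such rows (4.7% higher, 10.8% lower). Within each of the 3 replicate numbers, which the labels do not give as pairs, PLZF_ON was lower for 7 of 29 lipid genes (24.1%, against 13.6% of all rows), namely Hmgcs1, Nsdhl, Hsd17b7, Insig1, Srebf1, Srebf2 and Acly. It was higher within each for Fdps, Fdft1, Nr1h3 and Scd1 (13.8%, against 15.3% of all rows). The shares within replicate numbers were not taken among rows above the limit. Of rows above the upper quartile of the WT mean, 84.5% were lower in PLZF_ON replicate 3, and of those below the median 17.7%.

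Of 33 further genes of the pathway, 28 were measured, and 0 passed the adjusted limma test over 4 or 6 arrays. An unadjusted p under 0.05 was reached over 4 arrays by 2 that were higher and 1 that was lower (10.7%, against 9.41% of all rows), and over 6 by 2 that were lower, Elovl5 and Slc25a1 (7.14%, against 5.77%). These shares are near those of all rows. Acat1, a mitochondrial thiolase that forms acetoacetyl-CoA, was at 7.77, 7.97 and 7.25 in PLZF_ON, against 7.15, 7.49 and 7.17 in WT (difference 0.55 over 4 arrays, SE 0.17, limma unadjusted p = 0.0177, adjusted p = 0.379; 0.39 over 6, limma adjusted p = 0.941). Mbtps1, the protease that makes the first cut in SREBP, was at 8.12, 8.17 and 7.15 in PLZF_ON and at 7.68, 7.86 and 7.66 in WT (difference 0.38 over 4 arrays, SE 0.14, limma unadjusted p = 0.0341, adjusted p = 0.463). Over 6 arrays Mbtps1 differed by 0.08, with PLZF_ON replicate 3 the lowest array. Elovl5, an elongase of polyunsaturated fatty acids, was at 8.62, 8.34 and 8.13 in PLZF_ON, against 9.19, 9.19 and 8.55 in WT. Its difference of -0.71 over 4 arrays (1.64-fold lower, SE 0.15, limma unadjusted p = 0.00325, adjusted p = 0.19) was -0.61 over 6 (SE 0.23, limma adjusted p = 0.762), and the groups overlapped only through PLZF_ON replicate 1 and WT replicate 3. Slc25a1, the mitochondrial citrate carrier, was at 6.91, 6.61 and 6.72 in PLZF_ON, against 7.28, 7.03 and 7.35 in WT, with every PLZF_ON array below every WT array. It differed by -0.40 over 4 arrays (SE 0.17, limma unadjusted p = 0.0556, adjusted p = 0.55) and by -0.48 over 6 (SE 0.17, limma unadjusted p = 0.021, adjusted p = 0.691).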

How the data were processed

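Total RNA of iNKT cells was labelled with biotin for Affymetrix whole-transcript arrays, per the labels' protocols. The authors deposited log2 expression values, 1 per array row, made with RMA per the submitters' processing notes, which gives arrays a common scale and compresses changes of dim genes. The sources used here name no version, build or annotation. The log2 values were used as deposited. Of 41345 rows, 23521 had 1 gene symbol in the platform annotation and were tested, 1814 had several, and 16010 had none listed. limma 3.58.1 (R 4.3.3; lmFit, eBayes, two-sided) was fitted with genotype alone over 4 arrays and over 6, adjusted by Benjamini-Hochberg over all tested rows, and checked on simulated data. The number of arrays limits the precision. The lipid genes, the role groups, the further lists and the tests were chosen with earlier results of these data known. Values per array were given for genes with an unadjusted p under 0.05, and for the smallest p and highest mean of each role group. Fdft1, Nsdhl, Insig2, Srebf1, Srebf2, Abcg1, Acly, Elovl6, Lrp1, Slc25a1, Cd68, Klrb1c, Adipoq and Mki67, and the limit from olfactory genes, were added after values were seen. So were Ncr1, Eomes, Fcer1g, Plin1, Lep, Cd4, Itgam and Lyz2. Figures were drawn with matplotlib 3.10.9.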

Additional observations from a re-analysis of the deposited data

How the results depend on the processing

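Neither fit called a lipid gene under any alternative tried (replicate block, each array left out, brighter rows alone, variance trend, quantile normalization, median centring, all deposited rows, array weights, averaging a gene's rows, and an adjusted p of 0.1). At an unadjusted p under 0.05 the limma counts were 3 over 4 arrays and 2 over 6, and the count over 6 depended on single arrays. With each array left out it ran from 0 (without WT replicate 1) to 5 (without PLZF_ON replicate 2, all lower). Leaving 1 array out of the 4 leaves 1 array in a group, and no count is given for that. With all deposited rows tested the counts over 4 and 6 arrays were 1 and 0, and with median centring 3 and 0. Same-numbered arrays deviated together with correlations of 0.13 over 4 arrays and 0.09, 0.25 and 0.24 over 6, and the labels give no pairing. With the replicate number as a block 0 lipid genes passed in either fit, and 4 and 2 had an unadjusted p under 0.05. The share of all rows under each alternative was not computed, so none of the counts of alternatives can be set against it.

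Of 308 alternative values of the 12 named genes, 286 kept their direction and 22 did not, all of them for Pmvk, Cyp51, Scap, Abca1, Stard4 and Fasn. The replicate block, the variance trend, all deposited rows and brighter rows alone change the test but not the difference. Averaging a gene's rows changes it for Scap alone. Directions under these settings were thus largely fixed in advance, so the 286 overstate how stable they are. With each array left out, Pmvk ran from -0.12 to 0.19 over 4 arrays and from -0.019 to 0.14 over 6, and Abca1 from -0.11 to 0.0565 over 4. Over 6 arrays Cyp51 ran from -0.23 to 0.47, Scap from -0.22 to 0.32, Stard4 from -0.13 to 0.16 and Fasn from -0.40 to 0.31. Over 6 arrays quantile normalization gave -0.027 for Cyp51 and 0.10 for Scap, median centring gave -0.016 for Stard4, and array weights, which gave PLZF_ON replicate 3 a weight of 0.15, gave 0.27 for Scap and 0.22 for Fasn. The cholesterol synthesis median ran from -0.10 to 0.06 over 4 arrays and from -0.14 to 0.00 over 6 with each array left out. Synthesis minus efflux ran from -0.34 to 0.11 and from -0.033 to 0.37, and synthesis minus uptake, an alternative chosen after seeing the data, from -0.32 to 0.047 and from -0.52 to -0.059. The cause of these changes was not tested. With 2 or 3 arrays per group, small differences could not be detected, and for the 7 dim genes signal over background limits the values further.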
